A study of Mus musculus with 4 samples.

Results

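Chil3-high cells were taken from the CD45-positive cells of MB49 tumours, a transplantable mouse bladder carcinoma, of female and male mice. The cells were selected on the measured Chil3 and Mmp13 counts. Chil3 encodes Ym1, a secreted chitinase-like protein that mouse macrophages make under interleukin-4 and that bone marrow monocytes and neutrophils also make. A cell counted as Chil3-high when Chil3 made up at least 0.1% of its UMIs (unique molecular identifiers, each standing for 1 captured mRNA molecule) and Mmp13, a collagenase gene, had at most 1 UMI. It also had to hold at least 2000 UMIs, at most 25% mitochondrially encoded UMIs, at least 3 UMIs of the macrophage genes Csf1r, Adgre1 and Cd68 together, no UMI of Cd3e, Cd3d or Cd3g, and at most 2 UMIs of the proliferation genes Mki67 and Top2a. The conditions other than those on Chil3 and Mmp13 are called the macrophage gate below. A total of 108 cells met all of them, 66 of the 5169 barcodes of the female CD45-positive library and 42 of the 5771 barcodes of the male one, out of 22115 barcodes in all 4 libraries.

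The groups were CD45-positive cells of female mice, CD45-positive cells of male mice, CD45-negative cells of female mice and CD45-negative cells of male mice, all from tumours of the same cell line, MB49. Single-cell RNA was captured on the BD Rhapsody microwell system after enzymatic digestion, red cell lysis and sorting of live cells by CD45, the pan-leukocyte surface protein. The study asked what the immune system contributes to the sex difference in tumour progression. Each group is 1 library. The labels leave out the strain, age, tumour site and number of mice behind each library, so the sex of the host cannot be told apart from any other difference between libraries, no comparison has a replicate, and no test was made. Intervals are 95% exact intervals and cover counting error only. The CD45-positive libraries held 37705608 UMIs in the female and 40644787 in the male. Cell names are running labels that both libraries use, so all 5169 female names also occur in the male library, and 1 name occurs in both sets of Chil3-high cells. Xist and the Y-linked gene Ddx3y matched the labelled sexes: Chil3-high cells of the female library had 115 Xist and 0 Ddx3y counts per 1000000 UMIs (CPM), and those of the male library had 0 Xist and 180 Ddx3y CPM.

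Tumour macrophages derive largely from blood monocytes. In mice the classical monocyte carries Ly6C on its surface, follows the chemokine receptor Ccr2 into tissue and expresses Plac8, Vcan and Hp, and these genes are turned down as it matures while complement C1q and MHC class II genes are turned up. Arginase 1, encoded by Arg1, splits arginine into ornithine and urea and is widely used beside Chil3 as a mark of interleukin-4-driven, or alternative, activation. In tumours arginase-expressing myeloid cells are known for depleting the arginine that T cells need.

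The 66 Chil3-high cells of the female library were 3.15% (2.44 to 3.99) of the macrophage gate, and the 42 of the male library were 2.51% (1.81 to 3.37). The ratio of these shares, female over male, was 1.26 (0.841 to 1.90), an interval that includes equal shares. It depended on the Mmp13 limit: with no Mmp13 UMI allowed the ratio was 0.540. Without the limit, 290 of 2095 gated cells in the female library (13.8%) and 50 of 1675 in the male library (2.99%) had Chil3 at 0.1% or more, a ratio of 4.64 (3.43 to 6.39). Of these Chil3-expressing cells, 22.8% in the female library and 84% in the male library passed the Mmp13 limit. Among gated cells with at most 1 Mmp13 UMI, Chil3-high cells were 19.3% (15.3 to 23.9) in the female library and 4.85% (3.52 to 6.50) in the male library.

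Mmp13 was also found where it should be absent, and more in the female library. T cells, taken as cells with at least 3 Cd3 UMIs and no UMI of the 3 macrophage genes, held a Mmp13 UMI in 71.4% of 77 cells of the female library and 15.2% of 297 cells of the male library, at median depths of 2977 and 3071 UMIs. Their Mmp13 level was 379 CPM in the female library and 53.7 CPM in the male library. Chil3-high cells held less, 139 CPM in the female library and 25.7 CPM in the male library, as the limit requires. By that limit, 41 of the 66 female cells had exactly 1 Mmp13 UMI and 25 had none, whereas 5 of the 42 male cells had 1 and 37 had none. Just outside it, 59 Chil3-expressing cells of the female library and 3 of the male library had 2 Mmp13 UMIs. The part of free Mmp13 RNA in the shares was not tested.

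Chil3 itself, which chose the cells and is given as a description, was spread over a wide range. It took 0.1001% of UMIs in the lowest female cell, 0.322% at the median and 1.36% in the highest, and 0.101%, 0.244% and 1.66% in the male cells. Values ran through the threshold without a gap: the highest excluded cells stood at 0.0945% in the female library and 0.0968% in the male library, and 4 female and 6 male members lay between 0.1% and 0.12%. No T cell reached 0.1% in either library (0 of 77 in the female and 0 of 297 in the male library). A count of 3 cells would be 3.90% and 1.01% of them. A Chil3 UMI was nevertheless held by 19.5% of female and 0.673% of male T cells. The Chil3-high cells held 6.13% of the Chil3 UMIs of all filtered cells of the female library and 44.3% in the male library. In the female library most of the remainder lay in the 224 Chil3-expressing cells with at least 2 Mmp13 UMIs, which held 47.8%. In the male library 8 such cells held 10.6%. Chil3 lies on chromosome 3 (mm10, 106147554 to 106167564). Its near-identical neighbour Chil4 could share reads with it. The labels do not say how such reads were assigned.

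Chil3-high cells were compared in each library with Chil3-low cells, which passed the same macrophage gate and Mmp13 limit with Chil3 under 0.1%. There were 276 Chil3-low cells in the female library and 824 in the male library. Chil3-high cells had a median of 3831.5 UMIs in the female and 3541 in the male library, against 4474 and 8141.5 UMIs in Chil3-low cells, so the depth gap was wider in the male library. Levels below are summed CPM of a set of cells, and a ratio is Chil3-high over Chil3-low. Across all genes measured, 2.11% of 1942 were at least 2-fold higher and 2.78% at least 2-fold lower in the female library, and 7.8% and 8.05% of 2013 in the male library. Only 0.739% of 1759 genes were 2-fold higher in both libraries and 1.59% were 2-fold lower in both. The median log2 ratio over all genes was 0.01 in the female library and 0.10 in the male library. For gene lists a 1.5-fold limit was used, which 10.3% of genes passed upward and 9.63% downward in the female library, and 20.7% and 14.5% in the male library.

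The cells did not bear out the Arg1 part of the name they were given, "Chil3-high Arg1 macrophages". Arg1 reached 0.1% of UMIs in 30 of 66 Chil3-high cells of the female library (45.5%, 33.1 to 58.2) and in 8 of 42 of the male library (19.0%, 8.60 to 34.1), and the median male cell had no Arg1 UMI. Per cell Arg1 ran from 0 through a median of 0.0553% to 1.65% in the female library, and from 0 through 0 to 1.42% in the male library. The 5 richest cells held 36.0% of the Arg1 UMIs of the female cells and 91.0% of those of the male cells. For comparison, 38.8% of female and 6.92% of male Chil3-low cells, and 1 female and 2 male T cells, reached 0.1%. The Chil3-expressing cells with at least 2 Mmp13 UMIs, outside the definition, reached it in 74.6% of 224 cells in the female library and in 5 of 8 cells in the male library. The cells are therefore called Chil3-high below and given no other name.

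**Figure D1:**
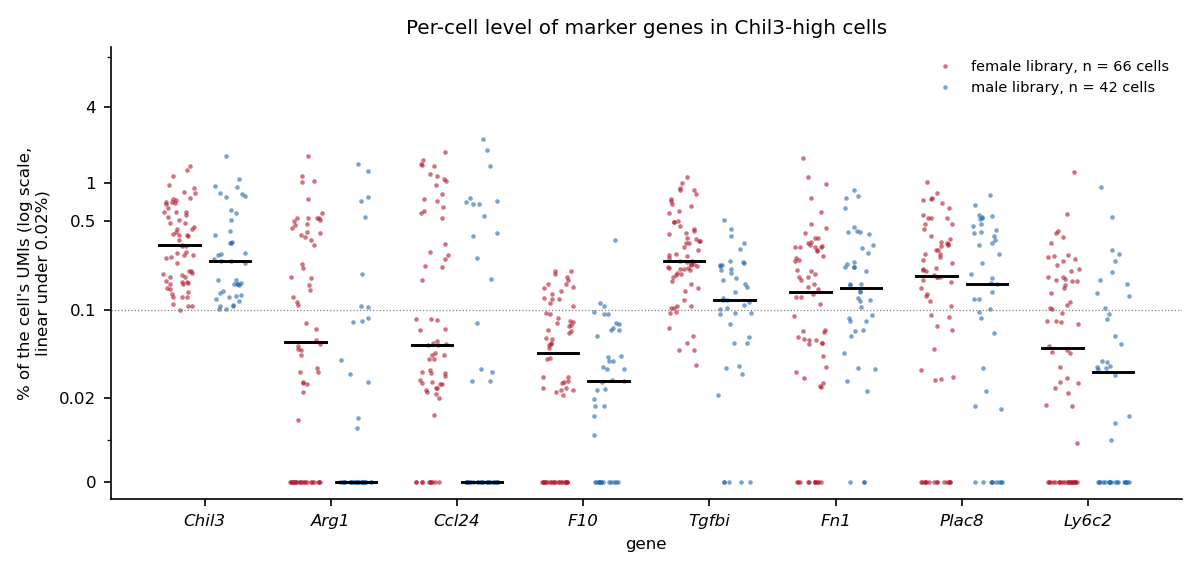
Share of each cell's UMIs taken by 8 genes in the single Chil3-high cells of the female (66 cells, left of each pair) and male (42 cells) libraries. Bars mark the median and the dotted line marks 0.1% of UMIs. Chil3 lies above the line by definition, Arg1 and Ccl24 spread from 0 to over 1%, and the male medians of Arg1 and Ccl24 are 0.

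At the level of summed counts the marker genes of that name behaved differently in each library. Arg1 (chromosome 10, 24915207 to 24927470) stood at 2332 CPM in Chil3-high against 1963 CPM in Chil3-low cells of the female library, a ratio of 1.19 (1.09 to 1.29). In the male library it stood at 2055 against 296 CPM, a ratio of 6.95 (6.22 to 7.73), with 35.1% of the Chil3-high UMIs in 1 cell. The levels in Chil3-high cells of both libraries were close, whereas those in Chil3-low cells were far apart. Ccl24, the eosinophil-attracting chemokine eotaxin-2, showed the same arrangement: 2841 against 3004 CPM in the female library (ratio 0.946, 0.877 to 1.02), and 3671 against 964 CPM in the male library (3.81, 3.52 to 4.11), with 22.6% in 1 cell. T cells held 242 CPM of Arg1 and 278 CPM of Ccl24 in the female library and 30.0 and 61.0 CPM in the male library, well under the Chil3-high cells. After thinning every cell to 2000 UMIs, an Arg1 UMI was found in 63.6% of female and 28.6% of male Chil3-high cells, in 63.8% and 18.6% of Chil3-low cells and in 35.1% and 6.06% of T cells. Before thinning, the shares were 69.7% and 38.1% of Chil3-high cells and 82.2% and 34.2% of Chil3-low cells.

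F10 and Tgfbi were more evenly spread over the cells. F10, which encodes coagulation factor X, stood at 594 CPM in Chil3-high against 348 CPM in Chil3-low cells of the female library (ratio 1.71, 1.43 to 2.04), and at 391 against 113 CPM in the male library (3.47, 2.71 to 4.40). Tgfbi, a secreted matrix protein induced by transforming growth factor beta, stood at 3221 against 2404 CPM (1.34, 1.24 to 1.44) in the female library and at 1473 against 1121 CPM (1.31, 1.16 to 1.48) in the male library. Every female Chil3-high cell held Tgfbi, from 0.0365% through a median of 0.242% to 1.12% of UMIs. Male cells ran from 0 through 0.119% to 0.512%. Of the 4 markers other than Chil3, F10 alone was over 1.5-fold higher in both libraries.

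Genes of classical monocytes, which the definition did not use, stood higher in Chil3-high cells of both libraries. The list was chosen with earlier results of these data known, so its values are a description only. Of 11 measured monocyte genes, 9 were at least 1.5-fold higher in Chil3-high cells of the female library and all 11 in the male library, with none lower. The median log2 ratio was 1.36 in the female library and 3.26 in the male library, beside 0.01 and 0.10 over all genes. Summed, the list stood at 6626 CPM in Chil3-high against 3557 CPM in Chil3-low cells of the female library, and at 5952 against 1124 CPM in the male library. Monocyte genes also lay outside the gate: T cells held 2666 CPM of the list in the female library and 1752 CPM in the male library.

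Ly6c2, which encodes the Ly6C surface protein, stood at 1110 CPM in Chil3-high against 426 CPM in Chil3-low cells of the female library (ratio 2.61, 2.27 to 3.0), and at 695 against 56.5 CPM in the male library (12.3, 10.0 to 15). Plac8, a small cysteine-rich protein of monocytes, stood at 2217 against 1294 CPM in the female library (1.71, 1.56 to 1.88), and at 1802 against 244 CPM in the male library (7.39, 6.57 to 8.29). Ly6c2 is also a T cell gene, with a UMI in 45.5% of female and 33.7% of male thinned T cells, against 59.1% and 47.6% of thinned Chil3-high cells and 31.2% and 5.95% of thinned Chil3-low cells. Chil3-high cells had the highest of the 3 thinned shares in both libraries. With Ly6c2 at 0.1% of UMIs or more and no thinning, Chil3-high and T cells were closer. The shares were 40.9% (29.0 to 53.7) against 35.1% (24.5 to 46.8) in the female library. In the male library they were 26.2% (13.9 to 42.0) against 26.9% (22.0 to 32.4). Chil3-low cells stood at 15.2% in the female and 3.03% in the male library. Vcan, the matrix proteoglycan versican, stood at 278 against 86.6 CPM in the female library (3.21, 2.39 to 4.31), and at 438 against 24.5 CPM in the male library (17.9, 13.6 to 23.3). Hp, the haemoglobin-binding protein haptoglobin, stood at 282 against 77.5 CPM in the female library (3.64, 2.69 to 4.90), and at 273 against 14.4 CPM in the male library (18.9, 13.3 to 26.6). For all 4 genes the Chil3-low cells of the male library lay lowest of the 4 sets. Closest to even in the female library were Ccr2, at 594 against 503 CPM, and Ms4a4c, a membrane protein of the MS4A family, at 465 against 492 CPM. In the male library the ratio of Ccr2 was 2.32, from 608 against 262 CPM. Other Ly6-family and Ifitm-family genes resemble Ly6c2 and Ifitm6 in sequence, so reads could be split between them.

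**Figure D2:**
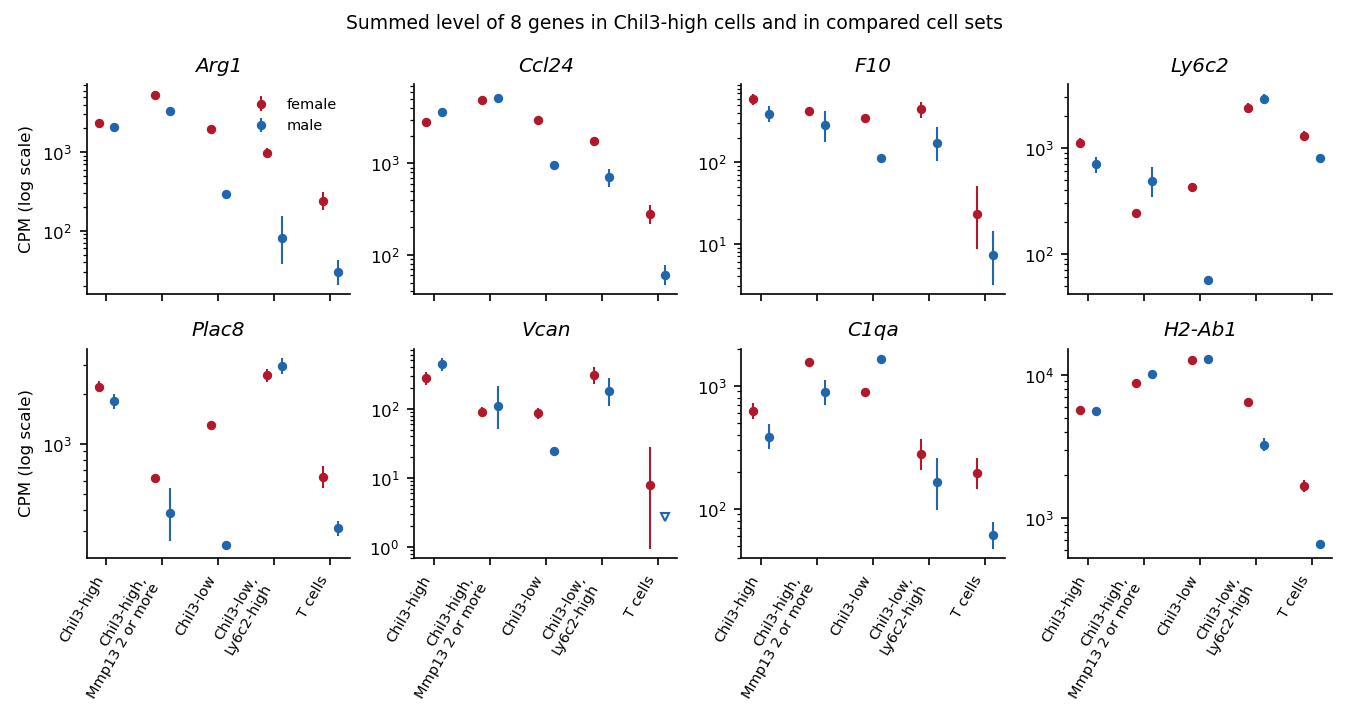
Summed level (CPM, log axis) of 8 genes in Chil3-high cells, Chil3-low cells, Chil3-expressing cells with at least 2 Mmp13 UMIs, Ly6c2-high cells and T cells of the female and male libraries. Points are sums over the cells of 1 library, bars are 95% exact Poisson intervals, and the open triangle is the limit set by 3 counts. Ly6c2, Plac8 and Vcan stand higher in Chil3-high than in Chil3-low cells of both libraries, and H2-Ab1 stands lower.

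Arg1 and Ly6c2 were each high in part of the Chil3-high cells. With 0.1% of UMIs as the limit for each gene, 7 female cells passed for both Arg1 and Ly6c2, 23 for Arg1 alone, 20 for Ly6c2 alone and 16 for neither. In the male library 1 cell passed for both, 7 for Arg1 alone, 10 for Ly6c2 alone and 24 for neither. Ly6c2 thus passed in 7 of 30 Arg1-high and 20 of 36 Arg1-low female cells, and in 40.9% of all. For male cells it passed in 1 of 8 and 10 of 34, and in 26.2% of all. Whether cells high in both were fewer than the separate shares would give was not tested. The following split by Arg1 was chosen after its values were seen and is a description only. Hp stood at 40.2 CPM in the 30 Arg1-high cells of the female library against 530 CPM in the 36 Arg1-low cells, and at 61.5 against 344 CPM in the 8 and 34 male cells. Vcan stood at 93.7 against 468 CPM in the female library and at 123 against 543 CPM in the male library. Plac8 stood at 1500 against 2954 CPM in the female library and at 554 against 2220 CPM in the male library. These 3 monocyte genes were lower in the Arg1-high cells of both libraries. The other 3 monocyte genes examined were less uniform. Ly6c2 stood at 743 against 1487 CPM in the female and at 780 against 667 CPM in the male library. The male Arg1-high value rested mainly on 1 cell, with Ly6c2 at 0.927% of its UMIs. No other male Arg1-high cell exceeded 0.0356%, and 4 of the 8 held a Ly6c2 UMI. Ccr2 stood at 516 against 675 CPM and at 369 against 687 CPM, and Ms4a4c at 482 against 448 CPM and 123 against 344 CPM. Of the 30 female Arg1-high cells, 18 held a Plac8 UMI and 15 a Ly6c2 UMI.

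Of other macrophage genes, some were higher in the Arg1-high cells of both libraries and some in the female library alone. Mrc1, the mannose receptor, stood at 1748 CPM in Arg1-high against 296 CPM in Arg1-low cells of the female library, and at 2113 against 591 CPM in the male library. Fn1, fibronectin, stood at 2812 against 1294 CPM in the female library and at 5847 against 1430 CPM in the male library. Ccl24 stood at 3890 against 1762 CPM and at 11058 against 1196 CPM. Apoe stood at 4613 against 1336 CPM in the female library but at 718 against 983 CPM in the male library. C1qb stood at 2297 against 923 CPM and at 841 against 839 CPM, and C1qc at 1419 against 592 CPM and 636 against 811 CPM. H2-Ab1 stood at 7338 against 4000 CPM and at 5191 against 5720 CPM. These 4 genes were thus higher on the Arg1-high side in the female library only. F10 was similar on both sides, at 583 against 606 CPM in the female library and 492 against 357 CPM in the male library. Chil3 was present on both sides, at 4781 against 3904 CPM in the female library and 5868 against 3258 CPM in the male library. Since the male Arg1-high side is 8 cells, its values rest on few cells.

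**Figure D3:**
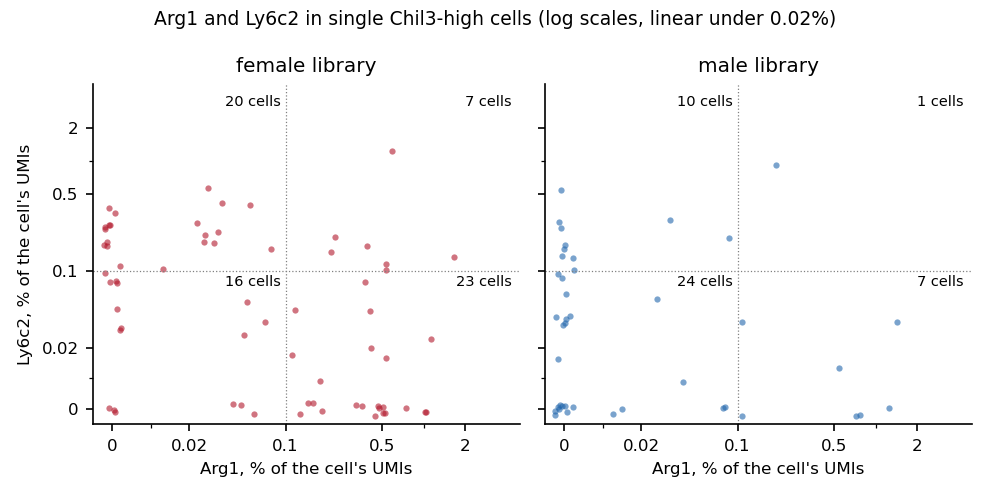
Arg1 (horizontal) against Ly6c2 (vertical) as percent of UMIs in single Chil3-high cells of the female and male libraries, with log axes that are linear under 0.02% and a small random shift of points. Dotted lines mark 0.1%, and the numbers count the cells in each field: 20 female and 10 male cells are high in Ly6c2 alone, 23 and 7 in Arg1 alone, and 7 and 1 in both.

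General myeloid genes stood near or above the level of Chil3-low cells for the most part. Lyz2, the lysozyme of myeloid cells, stood at 12838 CPM in Chil3-high against 4985 CPM in Chil3-low cells of the female library (ratio 2.58), and at 12193 against 7259 CPM in the male library (1.68). Of 11 measured pan-macrophage genes, 3 were at least 1.5-fold higher and none lower in the female library, and 3 were higher and 2 lower in the male library. Itgam, the integrin CD11b, was among the higher ones in both, at 1246 against 688 CPM and 1143 against 540 CPM. Aif1, the actin-binding protein Iba1, was even in the female library, at 499 against 586 CPM, and lower in the male library, at 324 against 731 CPM. Lyz2 ran from 0.0187% through a median of 1.04% to 3.05% of UMIs in female cells, and from 0.0546% through 1.62% to 3.31% in male cells, so every Chil3-high cell held it.

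Genes of mature, resident-like macrophages stood lower, above all in the male library. Of 9 measured in the female library, 1 was higher and 3 lower, with a median log2 ratio of −0.52, and of 10 measured in the male library 1 was higher and 9 lower, with a median of −1.79. C1qb, a chain of complement C1q, stood at 1619 CPM in Chil3-high against 2176 CPM in Chil3-low cells of the female library and at 839 against 3097 CPM in the male library. C1qc stood at 1012 against 1482 CPM and at 767 against 3004 CPM. The C1q chains C1qa, C1qb and C1qc together came to 3252 against 4552 CPM in the female library and 1993 against 7747 CPM in the male library. Apoe, a lipid carrier, went opposite ways: 2997 against 1704 CPM in the female library (ratio 1.76, with 23.7% of the Chil3-high UMIs in 1 cell), and 917 against 3907 CPM in the male library (ratio 0.235).

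Antigen presentation genes were lower in both libraries by similar factors. Of 11 MHC class II and costimulatory genes measured, 9 were at least 1.5-fold lower and none higher in the female library (median log2 ratio −1.0), and 7 were lower and 1 higher in the male library (−1.14). H2-Ab1, a class II beta chain, stood at 5692 CPM in Chil3-high against 12555 CPM in Chil3-low cells of the female library (ratio 0.453), and at 5587 against 12955 CPM in the male library (0.431). Cd74, the invariant chain, stood at 5234 against 10436 CPM (0.502) and at 5839 against 12937 CPM (0.451). The sum of H2-Aa, H2-Ab1 and H2-Eb1 was 14039 against 30905 CPM in the female library and 14207 against 33640 CPM in the male library. Cd86, a costimulatory receptor, was near even, at 333 against 317 CPM and 294 against 342 CPM. H2-Ab1 still reached 2.56% of UMIs in the highest female cell and 2.15% in the highest male cell, with medians of 0.289% and 0.0909%.

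Dendritic cell genes differed in the same direction. Their summed level was 33.9 CPM in Chil3-high against 543 CPM in Chil3-low cells of the female library and 61.8 against 676 CPM in the male library, and 4 of the 9 genes were at 0 in the Chil3-high cells of each library. Cd209a, a lectin of type 2 dendritic cells, stood at 6.79 against 236 CPM and at 15.4 against 165 CPM. Ccr7, the receptor of migrating dendritic cells, had no UMI in female Chil3-high cells against 139 CPM in Chil3-low cells, at least 13.7-fold lower on a floor of 3 counts, and 5.15 against 221 CPM in the male library. With every cell holding over 1 UMI of the dendritic list left out of both sets, an alternative added after the data were seen, the median log2 ratio of the class II list was −0.89 in the female and −0.85 in the male library. The number of genes 2-fold lower in both libraries was then 17 in place of 28. Cd209a itself then had a log2 ratio of 0.47 in the female and Ccr7 of 0.69 in the male library, from few counts.

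The alternative activation list, which holds Arg1 and Ccl24 but was counted without Chil3, was not higher by its median. Of 15 genes measured, 1 was higher and 7 lower in the female library (median log2 ratio −0.56), and 6 were higher and 4 lower in the male library (−0.14). Mrc1 stood at 1032 CPM in Chil3-high against 1298 CPM in Chil3-low cells of the female library and at 973 against 1206 CPM in the male library. Mgl2, the galactose lectin CD301b, stood at 434 against 1392 CPM (ratio 0.312) and at 1246 against 2063 CPM (0.604). Tgm2, transglutaminase 2, stood at 1935 against 1289 CPM (1.5) and at 1035 against 527 CPM (1.96). The dendritic-cell-attracting and Th2-attracting chemokine Ccl22 had 1 UMI in female and 2 in male Chil3-high cells, 3.39 against 32.7 CPM and 10.3 against 175 CPM.

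Arginine genes were mixed. Of 12 measured, 3 were higher and 4 lower in the female library, with a median log2 ratio of −0.37, and 3 were higher and 3 lower in the male library, with −0.30. Slc7a2, an arginine importer, stood at 424 CPM in Chil3-high against 226 CPM in Chil3-low cells of the female library, with 23.2% of the UMIs in 1 cell. Odc1, which makes putrescine from ornithine, stood at 232 against 505 CPM in the male library, a ratio of 0.458. Ass1, which rebuilds arginine from citrulline, stood at 61.1 against 116 CPM in the female library. Arg1 was itself among the 3 higher genes of the male library.

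Matrix and adhesion genes were higher for 8 of 17 measured in each library, and lower for 3 in each, with median log2 ratios of 0.44 in the female and 0.58 in the male library. Thbs1, the adhesive glycoprotein thrombospondin 1, was the most abundant of them. It stood at 6422 CPM in Chil3-high against 3735 CPM in Chil3-low cells of the female library (ratio 1.72, 1.63 to 1.81), and at 11385 against 2343 CPM in the male library (4.86, 4.65 to 5.08). Per cell Thbs1 had a median of 0.578% and a maximum of 2.17% of UMIs in the female library, and 1.06% and 4.26% in the male library. Fn1 stood at 2064 against 1058 CPM (1.95, 1.77 to 2.15) in the female library and at 2539 against 348 CPM (7.30, 6.61 to 8.04) in the male library. Mmp8, a collagenase stored in neutrophil granules, stood at 231 against 34.2 CPM and at 118 against 7.79 CPM. Neutrophil genes in sum stood at 479 against 251 CPM in the female library and 278 against 266 CPM in the male library. Mmp8 is also on that list, and its 231 and 118 CPM are part of the sums of 479 and 278 CPM. The granule genes Ngp, Elane and Mpo were at 0 in the Chil3-high cells of both libraries. Cd44, the hyaluronan receptor, stood at 1867 against 1174 CPM and at 1982 against 560 CPM. Spp1, osteopontin, was higher in sum, but 1 cell held 49.1% of its Chil3-high UMIs in the female library and 53.2% in the male library.

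Of the coagulation and plasminogen genes, 5 of 11 measured were higher and none lower in the female library (median log2 ratio 0.37), and 6 of 12 were higher and 4 lower in the male library (0.66). F13a1, the A subunit of the clot-stabilising factor XIII and also a monocyte gene, stood at 523 CPM in Chil3-high against 186 CPM in Chil3-low cells of the female library, and at 536 against 273 CPM in the male library. Plaur, the urokinase receptor, stood at 1548 against 1201 CPM and at 1617 against 806 CPM. Plau, urokinase itself, stood at 102 against 144 CPM and at 15.4 against 131 CPM. F5, coagulation factor V, stood at 95 against 29.6 CPM and at 66.9 against 4.11 CPM. Both F5 and F10 were thus higher in Chil3-high cells of each library, and Plau was lower in the male one.

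Chemokines of the CC family were mostly lower. Of 12 measured, 3 were higher and 7 lower in the female library (median log2 ratio −1.0), and 3 were higher and 8 lower in the male library (−1.39). With no Mmp13 limit the female median was 0.25. Ccl8, a monocyte attractant, stood at 540 CPM in Chil3-high against 1278 CPM in Chil3-low cells of the female library, and at 113 against 1684 CPM in the male library. Ccl6, which is abundant in mouse myeloid cells, went the other way, at 1938 against 1097 CPM and 2101 against 1045 CPM. Of the CXC chemokines, Cxcl9, an interferon-gamma target that attracts T cells, stood at 265 against 463 CPM and at 129 against 1268 CPM. Cxcl2, a neutrophil attractant, was near even, at 1999 against 1960 CPM and 3172 against 2354 CPM. Il1b, interleukin-1 beta, was abundant and near even as well, at 3099 against 3341 CPM in the female library and 4943 against 3826 CPM in the male library. Of the other inflammatory genes, Osm, the cytokine oncostatin M, was over 1.5-fold higher in both libraries, at 716 against 467 CPM and 814 against 377 CPM.

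Hypoxia genes differed little in both libraries, and glycolysis genes differed little in the female library but were higher in part in the male one. Of 13 hypoxia-induced genes measured in the female library, 1 was higher and 1 lower (median log2 ratio 0.24). Of 12 in the male library, 2 were higher and none lower (0.11). Vegfa, the vascular growth factor, stood at 489 CPM in Chil3-high against 429 CPM in Chil3-low cells of the female library and at 510 against 297 CPM in the male library. None of 14 glycolysis genes was higher and 2 were lower in the female library (median −0.04). In the male library 5 were higher and none lower (0.44, beside 0.10 over all genes). Pkm, pyruvate kinase, stood at 1473 against 1207 CPM and at 1086 against 707 CPM.

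Several lists pointed one way in the female library and the other in the male library. Interferon-stimulated genes were higher for 10 of 15 and lower for 1 in the female library (median log2 ratio 0.81), but higher for 1 of 14 and lower for 7 in the male library (−0.65). A single female cell held 24.5% of the interferon UMIs of the female Chil3-high cells, and the female median was −0.65 in the 25 cells with no Mmp13 UMI and −0.043 with no Mmp13 limit. Ifi204, an interferon-induced DNA sensor, was higher in both, at 547 against 334 CPM in the female library and 376 against 141 CPM in the male library. Osteoclast-like and lysosomal genes had median log2 ratios of 0.60 in the female library (6 of 12 higher, 2 lower) and −0.70 in the male library (4 of 13 higher, 7 lower), where it was 0.31 with Chil3 at 0.05%. Ctsb, the lysosomal protease cathepsin B, stood at 4535 against 3098 CPM and at 2363 against 3837 CPM. In the female library 1 cell held 19.2% of the list's UMIs, and 77.9% of those of Ctsk, cathepsin K.

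Redox and iron genes were higher for 4 of 10 and lower for none in the female library (0.52), and higher for 1 of 11 and lower for 3 in the male library (−0.13). Hmox1, the haem-degrading heme oxygenase 1, stood at 1107 CPM in Chil3-high against 476 CPM in Chil3-low cells of the female library, and at 108 against 261 CPM in the male library. Fth1, the ferritin heavy chain, was abundant in all, at 10268 against 7521 CPM and 8743 against 8332 CPM. Lipid-handling genes had medians of 0.35 in the female library, where 5 of 15 were higher and 2 lower, and −0.05 in the male library, where 1 of 15 was higher and 4 lower. Complement genes had medians of −0.33 in the female library (3 of 10 higher, 2 lower) and −1.02 in the male library (2 of 10 higher, 6 lower). C5ar1, the receptor of the C5a fragment, stood higher in both, at 431 against 264 CPM and 350 against 193 CPM. The differences between libraries in these medians were not tested.

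Receptors for phagocytosis and danger signals were mixed, at 4 of 12 higher and 1 lower in the female library (median log2 ratio 0.38) and 4 of 13 higher and 3 lower in the male library (−0.07). Clec4d, a C-type lectin that senses microbial glycolipids, stood at 397 CPM in Chil3-high against 133 CPM in Chil3-low cells of the female library (ratio 2.99, 2.34 to 3.8), and at 458 against 77.1 CPM in the male library (5.95, 4.70 to 7.45). Fpr2, a formyl peptide receptor, stood at 160 against 40.3 CPM and at 165 against 19.8 CPM. Axl, a receptor for apoptotic cells, was lower, at 95 against 201 CPM and 108 against 399 CPM. The lectins and formyl peptide receptor that were higher are also expressed by monocytes and neutrophils.

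**Figure D4:**
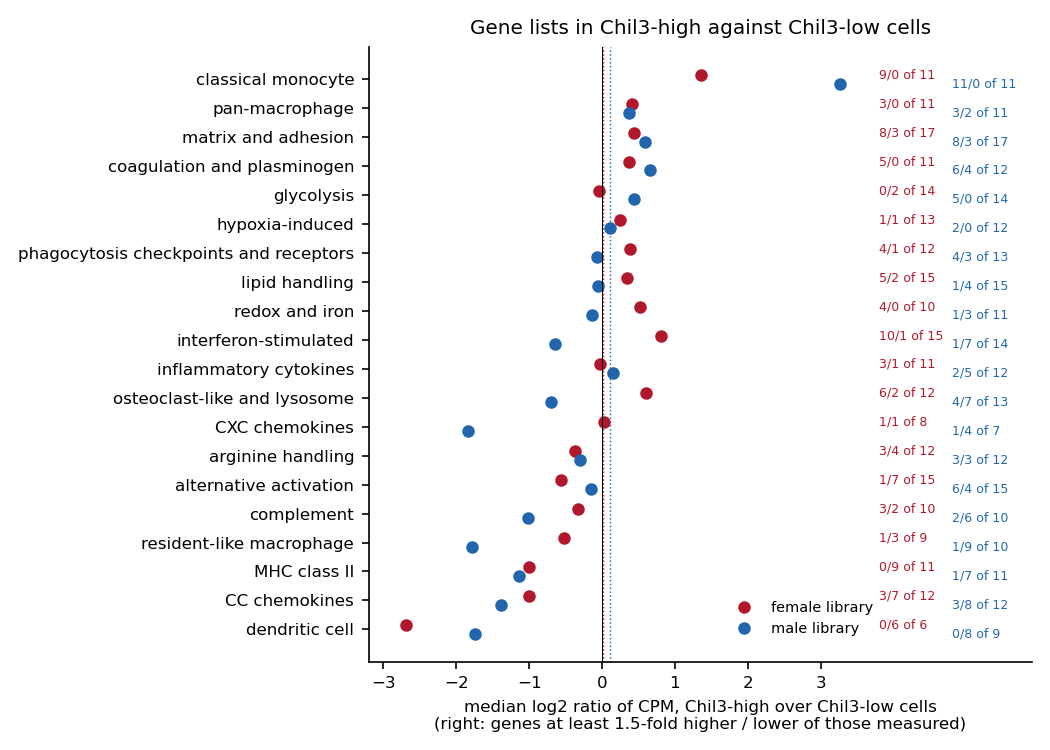
Median log2 ratio of CPM, Chil3-high over Chil3-low cells, for 20 gene lists in the female and male libraries. Numbers at the right give the genes at least 1.5-fold higher and lower of those measured, and dotted lines mark the medians over all genes, 0.01 and 0.10. The classical monocyte list is highest in both libraries, and the MHC class II, CC chemokine and dendritic cell lists lie near −1.0 or below in both.

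Of all genes measured in both libraries, 13 were at least 2-fold higher in Chil3-high cells of each and 28 at least 2-fold lower. Beside Ly6c2, Vcan, Hp, Ifitm6, Gsr and Clec4d, the higher ones included Mgst1, a microsomal glutathione transferase, at 305 CPM in Chil3-high against 83.6 CPM in Chil3-low cells of the female library and 196 against 49.2 CPM in the male library. Smpdl3a, a phosphodiesterase related to acid sphingomyelinase, stood at 502 against 151 CPM and at 324 against 106 CPM. Rgcc, a regulator of the cell cycle, stood at 373 against 166 CPM and at 273 against 65.3 CPM. Gsr, glutathione reductase, which is also on the monocyte list, stood at 329 against 128 CPM and at 391 against 40.8 CPM. Both Gsr and Mgst1 act on glutathione. Of the lower ones, Plet1, a surface protein of mature dendritic cells and epithelia, stood at 20.4 against 248 CPM and at 66.9 against 752 CPM. Tbc1d4, a Rab GTPase-activating protein, stood at 13.6 against 122 CPM and at 10.3 against 218 CPM. The heat shock gene Hspa1b stood at 27.2 against 225 CPM and at 25.7 against 175 CPM, and its near-identical copy Hspa1a, whose reads can be split with it, at 17.0 against 134 CPM and 15.4 against 113 CPM. With no Mmp13 limit both turned higher in the female library, at log2 ratios of 0.81 for Hspa1b and 0.96 for Hspa1a.

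Below the 0.1% limit, several genes differed with Chil3 in the male library, and most of these differed little in the female one. In the male library, 746 Chil3-low cells had no Chil3 UMI and 78 had some. Arg1 stood at 685 CPM in cells with some Chil3 against 258 CPM in cells with none, Fn1 at 906 against 294 CPM, Vcan at 113 against 15.9 CPM and Hp at 51.1 against 10.9 CPM. Cd209a stood at 11.2 against 180 CPM. In the female library the 119 cells with some Chil3 and the 157 with none were closer for most of these genes. Arg1 stood at 2087 against 1860 CPM, Ly6c2 at 429 against 422 CPM and Vcan at 88.5 against 85.1 CPM. Cd209a differed in the female library too, at 95.2 CPM with some Chil3 against 354 CPM with none. There, Ly6c2 stood at 886 CPM in the 22 cells with Chil3 of 0.1% to 0.2% and at 1482 CPM in the 23 cells of 0.2% to 0.5%. The second of these classes holds the female Chil3-high cell richest in Ly6c2, at 1.24% of its UMIs, so that level rests in part on 1 cell. H2-Ab1 stood at 12212 CPM with no Chil3, 12965 CPM under 0.1%, 5184 CPM at 0.1% to 0.2% and 7065 CPM at 0.2% to 0.5%. Among these classes, each of at least 20 cells, H2-Ab1 was lower in both classes above the 0.1% limit than in both below it.

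Against the Chil3-expressing cells with at least 2 Mmp13 UMIs, Chil3-high cells were poorer in Arg1 and richer in monocyte genes. Arg1 stood at 2332 CPM in Chil3-high cells against 5342 CPM in those cells of the female library, and at 2055 against 3281 CPM in the male library. Mrc1 stood at 1032 against 2646 CPM and at 973 against 2381 CPM. Plac8 stood at 2217 against 625 CPM and at 1802 against 382 CPM. The cells with Mmp13 were deeper, at medians of 6275 and 8381 UMIs, and the male set is 8 cells. Against Ly6c2-high cells, the Chil3-low cells with Ly6c2 at 0.1% or more (42 female and 25 male cells), Arg1 and Ccl24 were higher in Chil3-high cells: Arg1 at 2332 against 973 CPM and 2055 against 82.3 CPM, Ccl24 at 2841 against 1746 CPM and 3671 against 704 CPM. Plac8 was lower, at 2217 against 2588 CPM and 1802 against 2953 CPM, and C1qa was higher, at 621 against 281 CPM and 386 against 165 CPM. C1qa stood at 1548 and 888 CPM in the cells with Mmp13. By Arg1, Plac8 and C1qa, and by the summed classical monocyte list, Chil3-high cells thus lay between those sets in both libraries. Other sums did not follow this order. The pan-macrophage list was higher in Chil3-high cells than in both sets. It stood at 33853 CPM, against 28074 CPM in Ly6c2-high cells and 29482 CPM in those with Mmp13, in the female library. In the male library it stood at 29530 against 21730 and 21192 CPM. The matrix and adhesion list was also highest in Chil3-high cells of both libraries. The Ly6c2-high cells also held genes of other cell types. Their dendritic cell genes summed to 1911 CPM in the male library, with a UMI in 16 of 25 cells, and to 126 CPM in the female library. Chil3-high cells held 61.8 and 33.9 CPM of these. B and plasma cell genes summed to 539 against 56.6 CPM in the male and 68.7 against 20.4 CPM in the female library. The part of such cells in this order was not tested.

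Between libraries, 41 of 783 genes were at least 2-fold higher in the Chil3-high cells of the female library (5.24%) and 10 at least 2-fold lower (1.28%). These counts depended on the choice of cells: the higher genes were 8 with no Mmp13 UMI allowed and 15 in cells of 2000 to 6000 UMIs, where the lower genes were 4, and with no Mmp13 limit they were 102 higher and 51 lower. The same ratio in Chil3-low cells is given beside each. Tgfbi stood at 3221 CPM in female against 1473 CPM in male Chil3-high cells, a ratio of 2.19 (1.91 to 2.51), beside 2.14 in Chil3-low cells. Slc3a2, the heavy chain of several amino acid transporters, stood at 716 against 299 CPM (2.40, 1.79 to 3.27), beside 1.77. Bcl2l11, which encodes the pro-apoptotic protein Bim, stood at 289 against 103 CPM (2.80, 1.71 to 4.82), beside 1.71. These 3 genes differed in the same direction in both sets. Ptgs2, cyclooxygenase 2, did not: it stood at 434 against 206 CPM in Chil3-high cells (ratio 2.11, 1.47 to 3.09), with a ratio of 0.581 in Chil3-low cells. Its log2 ratio in Chil3-high cells turned to −0.080 with Chil3 at 0.05% and to −0.44 after thinning. Aldoa, the glycolytic aldolase A, stood at 1606 against 772 CPM (2.08, 1.73 to 2.51), beside 1.42 in Chil3-low cells.

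Genes that stood lower in the female library, not all of them by 2-fold, included Thbs1. It stood at 6422 against 11385 CPM (ratio 0.564, 0.530 to 0.600), where Chil3-low cells had a ratio of 1.59. Cnbp, a nucleic acid binding protein, stood at 465 against 973 CPM (0.478), beside 1.10 in Chil3-low cells. Eif5a, a translation factor, stood at 1663 against 2760 CPM (0.603), beside 1.10 in Chil3-low cells. Thbs1 and Eif5a did not reach 2-fold and are not among the genes counted as 2-fold lower above. Hmox1 had a large ratio, 10.2 (6.58 to 16.8), at 1107 against 108 CPM, beside 1.83 in Chil3-low cells, and 1 female cell held 14.7% of its UMIs. Apoe stood at 2997 against 917 CPM (3.27, 2.78 to 3.86), beside 0.436.

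Gene lists were compared between libraries in the same way, where 13.2% of genes were at least 1.5-fold higher and 7.41% at least 1.5-fold lower in the female Chil3-high cells, with a median log2 ratio of −0.01. The classical monocyte list was balanced, with 2 of 11 higher and 2 lower (median −0.03). The MHC class II list had none of 10 higher and 3 lower (−0.17). Interferon-stimulated genes were higher for 9 of 10 and lower for none (1.87), osteoclast-like and lysosomal genes for 8 of 11 and none (1.18), and redox and iron genes for 7 of 10 and none (0.75). In the first of these lists 1 female cell held 24.5% of the UMIs, and in the second 19.2%.

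Arg1, 3 monocyte genes, Fn1 and H2-Ab1 are given here by the same ratios. Arg1 had a female over male ratio of 1.14 (1.00 to 1.29) in Chil3-high cells and 6.64 (6.26 to 7.04) in Chil3-low cells. Plac8 had 1.23 (1.08 to 1.4) and 5.30, Ly6c2 1.60 (1.30 to 1.97) and 7.53, and Fn1 0.813 (0.721 to 0.917) and 3.04. For Vcan the ratio was 0.636 (0.464 to 0.872) in Chil3-high and 3.53 in Chil3-low cells. H2-Ab1 had 1.02 and 0.969. The ratios of the first 5 genes thus lay nearer to 1 in Chil3-high cells, and that of H2-Ab1 was near 1 in both sets. These differences between sets were not tested. T cells, which should lack Arg1, also held more of it in the female library (242 against 30.0 CPM), and the part of free RNA in the Chil3-low ratios was not tested.

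**Figure D5:**
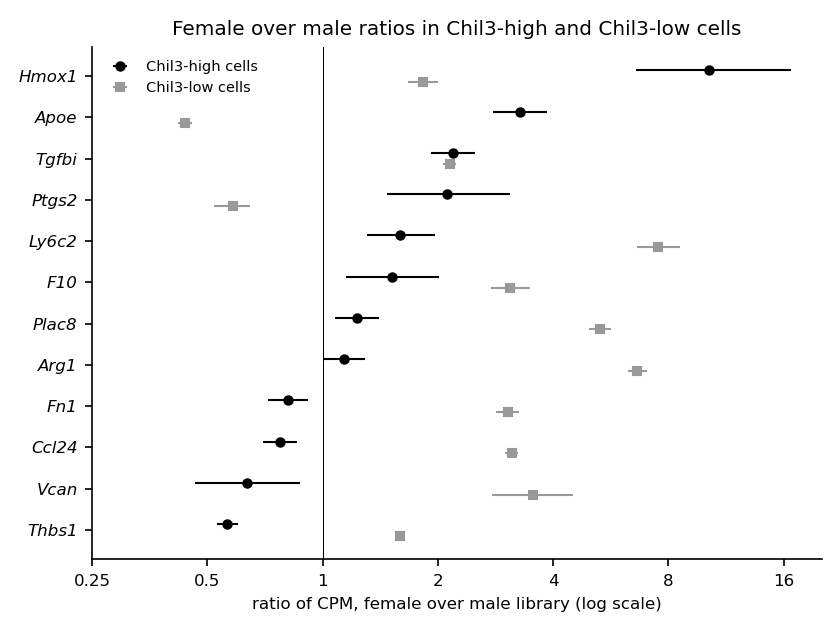
Ratio of CPM, female over male library (log axis), for 12 genes in Chil3-high cells (black) and Chil3-low cells (grey). Bars are 95% exact intervals for counting error. For Arg1, Plac8, Ly6c2, Fn1 and Vcan the black points lie nearer to 1 than the grey ones, and for Hmox1 and Apoe they lie farther to the female side.

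Marker lists of other cell types, apart from neutrophils, were lower in Chil3-high than in Chil3-low cells. The sum of the neutrophil list, given above, was higher in the female library (479 against 251 CPM) and near even in the male library (278 against 266 CPM). Its genes did not all go the same way. Of 5 measured in the female library, Cxcr2 and Mmp8 were at least 1.5-fold higher and S100a9 was lower. Of 7 measured in the male library, Csf3r, Lcn2 and Mmp8 were higher and S100a8, S100a9 and Retnlg lower. The female Chil3-high cells had the highest neutrophil sum of all female sets compared. Mmp8, given above with the matrix genes, was a large part of that sum, and 1 cell held 21.3% of it. The part of neutrophil RNA in the results was not tested. T and NK cell genes summed to 88.3 CPM in Chil3-high against 296 CPM in Chil3-low cells of the female library and 56.6 against 121 CPM in the male library, beside 9947 and 8578 CPM in T cells. B and plasma cell genes summed to 20.4 against 76.7 CPM and 56.6 against 113 CPM, and Cd79a and Ms4a1 were at 0 in the Chil3-high cells of both libraries. Tumour and fibroblast genes summed to 44.1 against 106 CPM, with 58.3% of the female Chil3-low UMIs in 1 cell, and to 30.9 against 116 CPM, and Krt5 and Epcam were at 0 in both. Mast cell, basophil and eosinophil genes summed to 6.79 against 9.12 CPM and 15.4 against 291 CPM, where 1 male Chil3-low cell held 76.0% of the UMIs. Of genes tied to Chil3 in lung macrophages, Car4, carbonic anhydrase 4, stood at 783 against 4.67 CPM in the male library, but 1 cell held 52.0% of its UMIs, and Ear2, an eosinophil-type ribonuclease, was lower in both, at 6.79 against 73.0 CPM and 30.9 against 205 CPM. No CD45-negative cell met the definition, with 0 of 3494 filtered cells in the female library and 0 of 4852 in the male library. A count of 3 cells would be 0.0859% and 0.0618% of them.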

How the data were processed

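Single-cell RNA was measured in 4 BD Rhapsody libraries. The deposited matrices hold raw UMI counts per gene and cell, not normalized; per the submitters' processing notes CASAVA 1.8, UMI-tools, Seurat and the build mm10 were used. Which step each served, the aligner, and whether doublets were removed before deposit: not given in the sources used here. No doublet caller was run here; alternatives without the deepest 5% of cells and with an upper limit of 6000 UMIs stand in its place. The members and gene lists were chosen with earlier results of these data known. Of 5169 female and 5771 male barcodes, 3652 and 3887 passed the filters of 2000 UMIs and 25% mitochondrial UMIs, and 2095 and 1675 the macrophage gate.

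Counts were summed over the cells of a set and given per 1000000 UMIs of that set (CPM). Intervals are 95% exact Poisson for levels, Clopper-Pearson for shares and conditional binomial for ratios. A gene was measured with at least 100 UMIs over both sets and 100 CPM in the higher, list genes with 20 UMIs, and a list median needed 5 genes. A count of 0 was set to 3 counts in a ratio, as a bound, and genes whose bound gave no direction were left out. Thinning kept 2000 UMIs per cell at random.

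Genes named were those of the definition and the lists (the largest and smallest ratios and the most abundant of each, or those that bear on a statement), those most different in the same direction in both libraries, and between libraries the largest differences with no cell over 10% of the UMIs. Genes outside that choice were named after their values were seen, among them Hmox1 and Apoe between libraries. Sex-linked, mitochondrial, ribosomal, haemoglobin, immunoglobulin and T cell receptor genes and unnamed models were left out of that ranking. Positions are from a RefSeq table of GRCm38.p6, the assembly behind mm10. The contrast code was tested on simulated data. Python 3.11.15, numpy 2.4.6, scipy 1.17.1, pandas 2.3.3 and matplotlib 3.10.9 were used.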

Additional observations from a re-analysis of the deposited data

Results flagged for a closer look

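Among list genes with at least 100 UMIs over both sets and 100 CPM in the higher set in each library, 8 were at least 1.5-fold higher in Chil3-high than in Chil3-low cells of the female library and at least 1.5-fold lower in the male library, with counting intervals on opposite sides of 1. Genes with fewer UMIs also went opposite ways, in either direction, and are not given here. The difference between libraries was not tested. Hmox1 had log2 ratios of 1.22 in the female and −1.27 in the male library, Ptgs2 0.61 and −1.25, and Apoe 0.81 and −2.09. Ctsd, a lysosomal protease, had 1.53 and −0.96. Abca1, a cholesterol exporter, had 0.81 and −0.73, and Cd36, a scavenger receptor, 0.68 and −1.21. C3ar1, the receptor of complement C3a, had 0.73 and −0.63. Ccl5, a T cell attractant, had 2.15 and −1.72, with 45.1% of its UMIs in female Chil3-high cells in 1 cell.

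Chil3 was also found outside the CD45-positive libraries: 26 UMIs in 4 filtered cells of the female CD45-negative library, 0.601 CPM (0.393 to 0.881), and no UMI in the male one.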

How the results depend on the processing

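No paired analysis was possible because each group has 1 library, and for the same reason no library could be left out. The 5 main results gave 82 values under the alternatives, of which 63 stayed within counting error or 1.5-fold of the reported value and 19 did not. The ratio of shares, 1.26, was 0.540 with Mmp13 at 0 UMIs, 2.91 thinned, 4.64 with no Mmp13 limit and 2.33 with Mmp13 at most 0.05% of UMIs, so it depends on that limit. Genes higher in both libraries, 13, were 20 with cells of at least 4000 UMIs and 22 with limits of 50 UMIs and 50 CPM. Genes lower in both, 28, were 17 with Mmp13 at 0, 56 with limits of 50, 7 with no Mmp13 limit and 17 without cells holding dendritic UMIs. Genes higher in the female library, 41, were 8 with Mmp13 at 0, 88 with limits of 50, 22 without background UMIs, 102 with no Mmp13 limit, 88 with Mmp13 at most 0.05% and 15 in cells of 2000 to 6000 UMIs. Genes lower there, 10, were 35 with limits of 50, 51 with no Mmp13 limit and 4 in cells of 2000 to 6000 UMIs. The settings with no Mmp13 limit, with 0.05%, with 2000 to 6000 UMIs and without dendritic UMIs were chosen after the data were seen.

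Some log2 values changed direction, and the cause was not tested. With Chil3 at 0.05%, the osteoclast-like and lysosomal median in the male library was 0.31, and Ptgs2 between libraries was −0.080, or −0.44 thinned. With Mmp13 at 0, which left 25 female cells, the interferon median in the female library was −0.65, and between libraries the medians were −0.18 for resident-like, −0.29 for matrix, −0.017 for hypoxia and −0.70 for CXC chemokine genes. With no Mmp13 limit, the CC chemokine median in the female library was 0.25 (0.28 with 0.05%), the interferon median −0.043, Hspa1a 0.96 and Hspa1b 0.81. Without dendritic UMIs, Cd209a was 0.47 in the female and Ccr7 0.69 in the male library, from few counts.

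Of 1072 list medians, 1021 moved by less than 1.5-fold, and of 1306 ratios of named genes, 1024 stayed within the counting interval. The classical monocyte median ran from 0.92 to 1.52 in the female and 1.76 to 3.52 in the male library over all alternatives, and the MHC class II median from −1.18 to −0.36 and −1.77 to −0.64. Depth limits genes under about 20 UMIs, and single cells hold large parts of several genes.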
